A study of Rattus norvegicus with 6 samples.

Results

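The MHC class II genes of the rat and their transactivator were followed in aorta from rats with kidney disease. The 8 genes were taken by symbol from a table of 24005 gene symbols: the invariant chain gene Cd74, the chain genes RT1-Da, RT1-Db1, RT1-Ba and RT1-Bb, the peptide loading genes RT1-DMa and RT1-DMb, and the regulator Ciita. All 8 were listed. RNA-seq had been made from 3 aorta libraries of rats given exosomes, which the labels call ANCR/E7-EXO, and from 3 of rats given saline. Exosomes were injected by tail vein at 10 mg/kg, once per 5 days, and the saline rats received an equal volume over 13 weeks. Rats of both groups had undergone subtotal nephrectomy (5/6 Nx in the labels) in steps, and both groups ate a diet with 1.2% phosphorus, used to hasten calcification. No library came from a rat without kidney disease. Strain, sex and age were not given in the sources used here, nor whether the libraries of a group came from separate animals. All p-values therefore rest on library-to-library spread, which may be technical. Values are FPKM, reads scaled to gene length and library total.

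MHC class II molecules are pairs of an alpha and a beta chain that display peptides from the endosome to CD4+ T cells. In the rat the RT1-D pair corresponds to human HLA-DR and the RT1-B pair to HLA-DQ. The invariant chain fills the peptide groove until proteases cut it down to a short remnant, which the DM heterodimer then removes. Ciita does not bind DNA itself: it docks onto factors that sit on a conserved set of promoter elements, the X and Y boxes, and it is induced by interferon gamma. In a vessel wall these genes are mainly read from macrophages, dendritic cells and B cells, and endothelial or smooth muscle cells can be induced to express them.

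Of the 8 genes, 7 were read in every library and RT1-DMa in 5 of the 6, at levels from near 0 to moderate, and none of them differed between exosome and saline rats beyond the spread between libraries. Cd74 averaged 52.8 ± 1.71 FPKM in saline and 54.8 ± 13.3 FPKM in exosome libraries (mean ± SD, n = 3 each). The groups overlapped for all 8 genes. They did not overlap for 21.1% of the 11742 genes tested, which do not include RT1-DMa and Ciita. At 8 genes, a count of 0 is near that background. Libraries of the same group also differed from each other: exosome 2 was the lowest library for 5 of the 8 genes, and RT1-DMb spanned a 52.7-fold range, with high and low libraries in both groups.

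**Figure D1:**
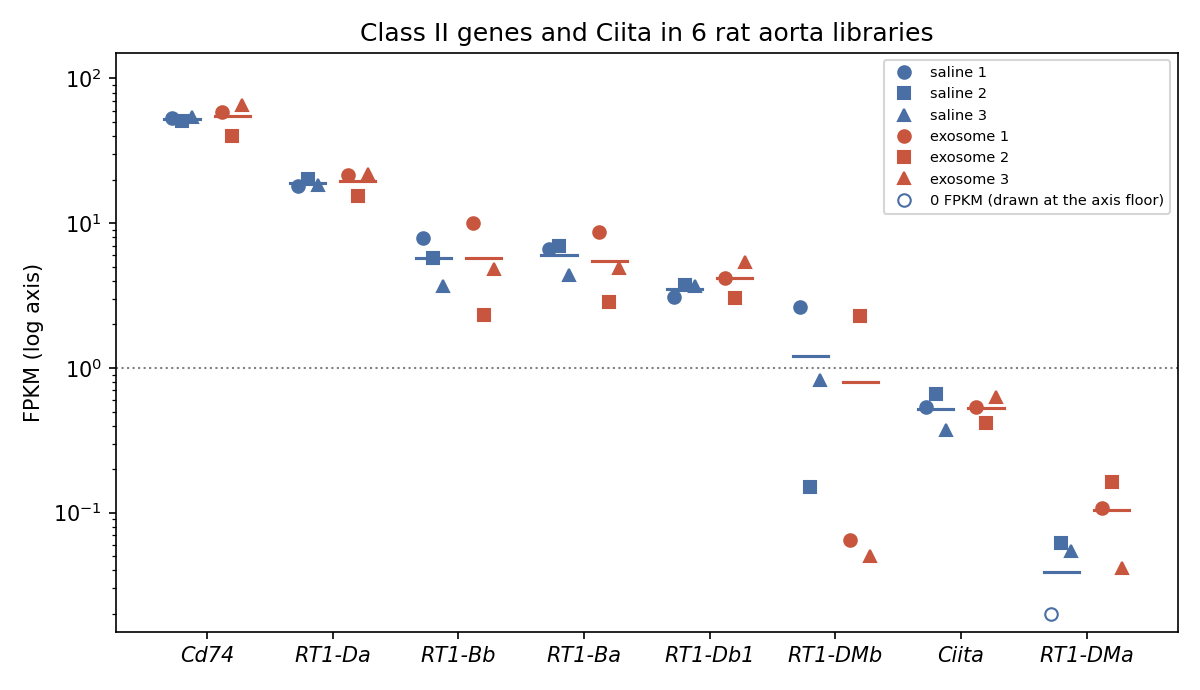
FPKM (log axis) of the 8 genes in each library, with saline in blue, exosome in red, marker shapes for replicate numbers 1 to 3 and bars at group means. The dotted line marks the minimum mean of 1 FPKM for testing and the open circle a value of 0; Cd74 is highest, Ciita and RT1-DMa lie below the line, and RT1-DMb is scattered over more than 1 order of magnitude in both groups.

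Levels are per length and can be compared between genes. Cd74 was highest, at a mean of 53.8 FPKM over the 6 libraries, and RT1-Da, the alpha chain of the D molecule, followed at 19.3. Cd74 exceeded RT1-Da in 6 of 6 libraries, and RT1-Da exceeded the next gene in 6 of 6. RT1-Bb and RT1-Ba, the beta and alpha chains of the B molecule, were level with each other at 5.75 FPKM each, with RT1-Bb above RT1-Ba in 2 of 6 libraries. RT1-Ba lay above RT1-Db1, the beta chain of the D molecule (3.85 FPKM), in 4 of 6, so these 3 genes could not be ranked beyond their spread. RT1-DMb averaged 1.0 FPKM, just at the minimum for testing, Ciita 0.526 and RT1-DMa 0.0713. RT1-DMb was above Ciita in 3 of 6 libraries, and Ciita was above RT1-DMa in 6 of 6.

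These levels rested on unequal numbers of reads. Whole reads behind the FPKM values came to 14873 for Cd74 over the 6 libraries, 4746 for RT1-Da, 1798 for RT1-Bb, 1317 for RT1-Ba and 1029 for RT1-Db1. Ciita had 620, RT1-DMb 255 and RT1-DMa 15. Class II chains are highly polymorphic and close paralogs lie beside them, so reads can be lost or shared between copies. The part of this in the levels was not tested. The paralog RT1-Db2 was listed at 0 in 5 of the libraries and at 0.0266 FPKM in exosome 3.

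Promoter windows from RefSeq (build GRCr8, 250 bases before to 50 after the start) were matched by symbol for 6 of the 8 genes, those of RT1-DMb and Ciita not being among them. They are shown because the class II genes are read as a group through their X and Y boxes. Each stretch below has 70 bases of the gene's own strand, 5′ to 3′, ending 10 bases after the Y box, with the matched letters in capitals. The letters searched were ATTGG for the Y box, ACNNATG for the core of the X1 box and TGANGTCA for the X2 box, on both strands, and X1 and X2 matches can overlap. They were chosen with these windows in view.
Cd74, chr18:56526962-56527031, plus strand: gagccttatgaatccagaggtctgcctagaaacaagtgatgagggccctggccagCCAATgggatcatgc
RT1-Da, chr20:4515311-4515380, plus strand: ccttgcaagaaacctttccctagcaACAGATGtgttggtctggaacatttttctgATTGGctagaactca
RT1-Db1, chr20:4560228-4560297, minus strand: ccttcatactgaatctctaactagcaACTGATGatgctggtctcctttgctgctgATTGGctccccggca
RT1-Ba, chr20:4576959-4577028, plus strand: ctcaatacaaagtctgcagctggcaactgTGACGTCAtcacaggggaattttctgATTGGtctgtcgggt
RT1-Bb, chr20:4604165-4604234, minus strand: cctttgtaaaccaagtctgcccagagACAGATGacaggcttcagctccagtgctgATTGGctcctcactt
RT1-DMa, chr20:4712385-4712454, minus strand: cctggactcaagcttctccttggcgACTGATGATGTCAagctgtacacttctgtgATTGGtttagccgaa

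The Y box letters were in all 6 windows, and 37.5% of the 33469 windows of the same length held them. In Cd74 they lay on the opposite strand, 189 bases before the start. X1 letters occurred in 4 of the 6 (RT1-Da, RT1-Db1, RT1-Bb and RT1-DMa), against 32.1% of all windows. In these 4 the X1 letters were followed by ATTGG on the gene's strand, with 22 or 23 bases between them. In all, 85 windows, 0.254%, held such a pair with a gap of 15 to 25 bases. The X2 letters stood in RT1-Ba and RT1-DMa, in the latter overlapping X1, against 10.2% of all windows. A match describes letters in a window, not a bound site, and a window without a match says only that these letters are not in it.

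Cd74 encodes the invariant chain. It read 53.3, 51.0 and 54.3 FPKM in saline 1, 2 and 3 and 58.6, 40.1 and 65.8 FPKM in exosome 1, 2 and 3. The saline libraries lay within a narrow band, and the exosome libraries lay on both sides of it, with exosome 2 below and the other two above. Exosome minus saline came to 0.02 ± 0.18 (SE) in log2(FPKM + 1), and limma's adjusted p (Benjamini-Hochberg, all 11742 tested genes) was 0.956. Its 95% interval ran from -0.39 to 0.44, a factor of 0.761 to 1.36. In bulk tissue fewer cells of a type and less RNA per cell cannot be told apart.

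RT1-Da encodes the alpha chain of the D molecule. Its values were 18.2, 20.2 and 18.4 FPKM with saline and 21.7, 15.3 and 21.8 FPKM with exosomes. The same picture as for Cd74 was seen, with exosome 2 lowest and exosome 3 highest. The log2 difference was 0.03 ± 0.15 (SE), with a 95% interval of -0.33 to 0.38 and an adjusted p of 0.932 in limma.

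RT1-Db1 encodes the beta chain that pairs with it. It read 3.07, 3.74 and 3.70 FPKM in the saline libraries and 4.21, 3.03 and 5.38 FPKM in the exosome libraries. Exosome 1 and 3 were above every saline library, and exosome 2 was just under saline 1. The log2 difference of 0.19 ± 0.19 (SE) was the largest positive one among the tested class II genes, with an adjusted p of 0.619 in limma and an interval of -0.26 to 0.63. It was 0.03 without exosome 3 and 0.36 without exosome 2.

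RT1-Ba, the alpha chain gene of the B molecule, read 6.66, 6.99 and 4.41 FPKM in the saline libraries and 8.66, 2.87 and 4.89 FPKM in the exosome libraries. RT1-Bb, its beta chain partner, read 7.89, 5.72 and 3.67 FPKM with saline and 10.1, 2.31 and 4.84 FPKM with exosomes. For both genes exosome 1 was the highest library and exosome 2 the lowest, and saline 3 was the lowest of its group. The spread from lowest to highest was 3.02-fold for RT1-Ba and 4.38-fold for RT1-Bb, against 1.43-fold for RT1-Da and 1.78-fold for RT1-Db1.

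The B chain genes differed by -0.20 ± 0.33 (RT1-Ba) and -0.13 ± 0.43 (RT1-Bb) on the log2(FPKM + 1) scale (SE), with adjusted p of 0.766 and 0.894 in limma. The interval for RT1-Bb, -1.14 to 0.89, spans a factor of 0.454 to 1.85, the widest of the 4 chains. Without exosome 2 the signs turned, to 0.12 for RT1-Ba and 0.30 for RT1-Bb. The sign of RT1-Bb also turned without saline 1, to 0.10.

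RT1-DMb encodes the beta chain of the DM molecule. It had 119, 6 and 38 reads in saline 1, 2 and 3 and 3, 86 and 3 reads in exosome 1, 2 and 3, or 2.63, 0.150 and 0.830 FPKM and 0.0648, 2.28 and 0.05 FPKM. High libraries were found in both groups, saline 1 and exosome 2, and so were libraries near 0. The range went far beyond counting error: the exact 95% Poisson interval was 98.6 to 142.4 reads for saline 1 and 0.619 to 8.77 reads for exosome 3, intervals that cover counting error only. The group difference was -0.35 ± 0.55 (SE) on the log2(FPKM + 1) scale with an adjusted p of 0.750 in limma. Its size followed the scale, reaching -1.95 in voom on the recovered reads, and its sign followed single libraries, since without saline 1 it was 0.09.

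RT1-DMa, the alpha chain of the same heterodimer, was nearly unread. It had 0, 2 and 2 reads with saline and 4, 5 and 2 with exosomes, or at most 0.164 FPKM. A count of 0 in saline 1 allows up to 0.0822 FPKM by the limit of 3 reads, and 0.101 FPKM by the wider two-sided 95% Poisson interval used for RT1-DMb, which ends at 3.69 reads. In saline 1, where RT1-DMb reached 119 reads, RT1-DMa had none. RT1-DMa lay below the minimum for testing. With no filter the log2 difference was 0.09 ± 0.05 (SE), on 15 reads in all, with an adjusted p of 0.494 in limma. Its size followed the scale, at 0.54 with a pseudocount of 0.1, 1.5 with 0.01 and 1.30 in voom.

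Genes near the DM pair in the GRCr8 gene order differed in how even they were. Psmb9, an immunoproteasome subunit gene next to RT1-DMb, ranged from 9.05 to 15.5 FPKM, and Psmb8, another, from 8.89 to 16.6. Brd2, which encodes a bromodomain protein and lies on the RT1-DMa side, stood at 1.10 to 1.32 FPKM in 4 libraries, at 0.624 in exosome 3 and at 5.64 in exosome 2. Another gene, Brd2l, lies between them in that assembly and is not analysed here. Tap2, a peptide transporter subunit in the same region, ranged from 0.361 FPKM in exosome 3 to 2.31 in saline 1, while its partner Tap1 ranged only from 5.86 to 8.62. These genes were picked for their position after the values of RT1-DMb had been seen, and their part in the spread of RT1-DMb was not tested.

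Ciita, the class II transactivator, was read at 0.538, 0.656 and 0.371 FPKM with saline and at 0.540, 0.418 and 0.633 FPKM with exosomes. The groups overlapped fully, with the lowest and the highest library both in the saline group. Its mean was under 1 FPKM, so it was outside the test. With no filter the log2 difference was 0.01 ± 0.09 (SE), the interval -0.22 to 0.24 and the adjusted p 0.966 in limma.

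Of the 6 class II genes tested, 3 were higher and 3 lower with exosomes, where 39.3% of all tested genes were higher. Their median log2 difference was -0.05, and that of all genes -0.073. None passed an adjusted p of 0.05, which 1 of the 11742 genes (0.00852%) did. That gene was Zbtb16, a zinc finger factor, at 10.8 ± 1.76 and 48.5 ± 3.58 FPKM (n = 3 each). None of the 6 reached an unadjusted p under 0.05, where 16.0% of all genes did (6.75% higher and 9.24% lower). At 6 genes, a count of 0 is near that background. Voom on the recovered reads also called none of them.

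**Figure D2:**
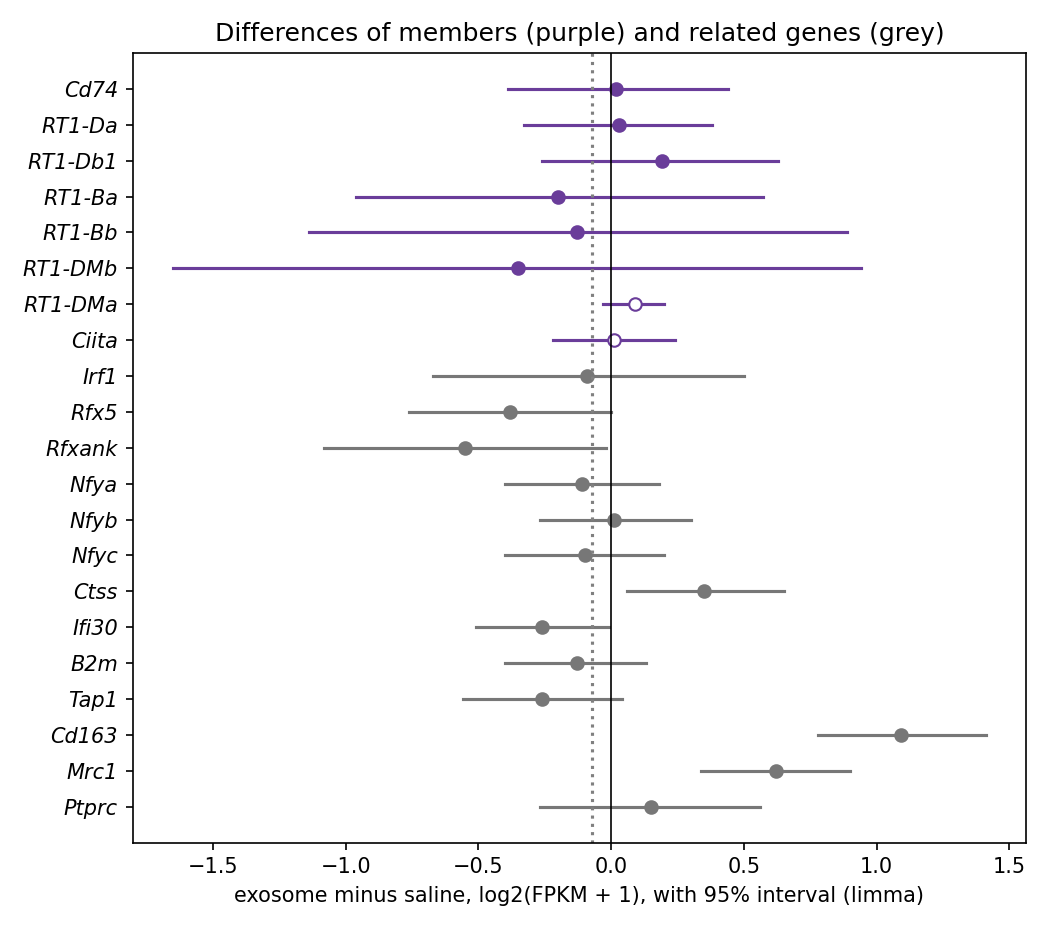
Log2(FPKM + 1) difference, exosome minus saline, with its 95% interval from limma, for the class II genes and Ciita (purple; open circles for those below the minimum) and related genes (grey). The dotted line is the median of all tested genes, -0.073; all 8 purple intervals cross 0, and the widest is that of RT1-DMb, -1.65 to 0.94.

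The chains were then compared within libraries. The ratio of RT1-Ba to RT1-Bb ran from 0.844 to 1.24, and that of RT1-Da to RT1-Db1 from 4.05 to 5.95. Both ranges stayed within 1.5-fold. The B pair relative to the D pair spread more widely: the summed B chains were 0.682, 0.530 and 0.366 of the summed D chains in saline 1, 2 and 3 and 0.725, 0.283 and 0.358 in exosome 1, 2 and 3. Saline 1 and exosome 1 were high and exosome 2 was lowest, so this ratio varied within both groups.

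Cd74 relative to the summed 4 chains lay between 1.31 and 1.80 in all libraries. Ciita relative to the same sum was 0.0151 ± 0.00279 with saline and 0.0157 ± 0.00313 with exosomes (exact two-sided permutation test, p = 1.0, where 0.1 is the smallest p that 3 against 3 allows). The sum itself was 35.9, 36.7 and 30.2 FPKM with saline and 44.6, 23.5 and 36.9 FPKM with exosomes. Exosome 1 and 2 were thus the highest and the lowest of the 6 libraries.

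Across the 6 libraries, the 15 pairs of the 6 tested genes were correlated on the log2(FPKM + 1) scale. RT1-Da and RT1-Db1 put the libraries in the same order (Spearman's rho = 1.0, exact permutation p = 0.00278, adjusted p = 0.0417; Pearson's r = 0.83, exact permutation p = 0.0403, adjusted p = 0.104). Without the 2 libraries farthest from the median of RT1-Da, r was again 0.83. RT1-Ba and RT1-Bb had r = 0.96 (exact permutation p = 0.00417, adjusted p = 0.0625) and rho = 0.94 (exact permutation p = 0.0167, adjusted p = 0.0626), and r = 0.85 without the 2 farthest libraries.

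Cd74 and RT1-Da had r = 0.90 (exact permutation p = 0.0167, adjusted p = 0.0938) and rho = 0.83 (exact permutation p = 0.0583, adjusted p = 0.146). Without the 2 libraries farthest from the median of Cd74, r was 0.49. Leaving out extremes narrows the range and can itself lower r, so this does not show what the relation rested on. Between the D and B molecules, RT1-Da had r = 0.75 with RT1-Ba (exact permutation p = 0.0778, adjusted p = 0.167) and 0.70 with RT1-Bb (exact permutation p = 0.121, adjusted p = 0.227). RT1-Db1 had r = 0.25 with RT1-Ba (exact permutation p = 0.629, adjusted p = 0.653) and 0.23 with RT1-Bb (exact permutation p = 0.653, adjusted p = 0.653). Spearman's rho was 0.54 with RT1-Ba (exact permutation p = 0.297, adjusted p = 0.495) and 0.43 with RT1-Bb (exact permutation p = 0.419, adjusted p = 0.571), the same for RT1-Da and RT1-Db1. Without the 2 farthest libraries these 4 values of r were 0.79, 0.59, 0.32 and 0.13. RT1-DMb had a negative r with all 5 other genes, down to -0.86 with RT1-Da (exact permutation p = 0.0236, adjusted p = 0.0938), with rho = -0.94 (exact permutation p = 0.0167, adjusted p = 0.0626). Without the 2 farthest libraries r was -0.85 for that pair, but turned to 0.24 with RT1-Ba and 0.55 with RT1-Bb. Both groups are pooled in these values, since 3 libraries are too few for an r within a group.

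**Figure D3:**
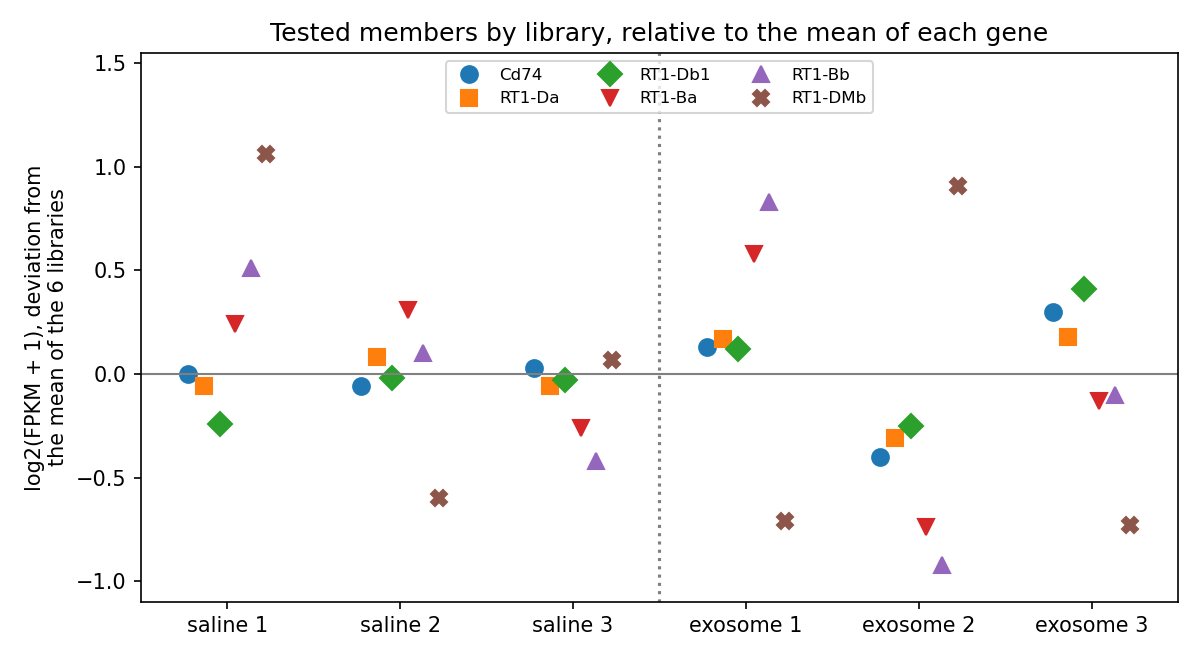
Deviation of log2(FPKM + 1) from each gene's mean over the 6 libraries, for the 6 tested class II genes in each library. In exosome 2 the 5 genes other than RT1-DMb are all below 0 and RT1-DMb is above it, and saline 1 has the highest RT1-DMb.

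The mean deviation of Cd74 and the 4 chains was -0.52 log2 units in exosome 2, against 0.37 in exosome 1 and 0.13 in exosome 3, and 0.09, 0.08 and -0.15 in saline 1, 2 and 3. Markers of other cells were not uniform in exosome 2. It had the lowest value of the myeloid marker Aif1 (3.61 FPKM, against 6.30 to 8.41 elsewhere) and of the leukocyte tetraspanin Cd53 (3.27, against 4.19 to 4.65). Other leukocyte and macrophage markers were mixed there. Laptm5 (7.98 FPKM), Csf1r (22.2), Mrc1 (16.3) and C1qb (19.5) were above every saline library, and Tyrobp and Fcer1g were not at their lowest. Ptprc, at 2.53 FPKM, was close to its lowest value, 2.51 in saline 2, and C1qa (23.1) lay between saline libraries (21.7 and 27.2). Exosome 2 had the highest value of the scavenger receptor Cd163 (17.4 FPKM) and of the endothelial adhesion gene Pecam1 (69.1, against 25.3 to 44.1). Exosome 2 was also the smallest library, at 28063355 reads or read pairs, in a range up to 44561082. The endothelial markers, 7 of 8 higher with exosomes, summed to 88.2 to 124.7 FPKM with saline and 137.2 to 213.0 with exosomes, the top value in exosome 2. The part of these in its low class II values was not tested, and the markers named here were singled out after their values were seen. Without exosome 2 the Cd74 difference was 0.23 and that of RT1-Db1 0.36, and neither passed.

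By a fixed rule, the 6 genes most like the class II profile were taken from 11044 tested genes with an assigned symbol. The profile was the mean of the standardised log2 values of the 6 tested members, and likeness was Pearson's r over the 6 libraries. This mean includes RT1-DMb, which had a negative r with the 5 others, so it mixes opposed members. Among the 6 most alike genes were Prss23 (r = 0.992), a serine protease gene, Sertad1 (0.984), Plxdc1 (0.982), Larp7 (0.980) and Hnrnpdl (0.957). Prss23 had 332.8, 312.8 and 294.0 FPKM in saline 1, 2 and 3 and 368.7, 220.9 and 338.0 FPKM in exosome 1, 2 and 3, with exosome 2 lowest as in the profile. All 6 genes had their lowest value in exosome 2. With so many genes ranked on 6 libraries such values are a description only.

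Regulators of class II transcription came next. The interferon gamma gene, Ifng, was listed at 0 in every library. Of 15 tested genes of the interferon gamma route, 4 were higher and 11 lower with a median of -0.10, and none passed the adjusted threshold. Among all tested genes 39.3% were higher, with a median of -0.073.

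Socs1, a feedback inhibitor of the pathway, averaged 2.23 ± 0.429 FPKM in saline and 0.963 ± 0.628 FPKM in exosome libraries (adjusted p = 0.272 in limma), with the groups apart. Cxcl10, an interferon-induced chemokine, had a log2 difference of -1.29 ± 0.47 (SE; adjusted p = 0.288). Its groups overlapped, and without saline 2, the highest at 8.44 FPKM, the difference was -0.78. Irf1, which also acts at the Ciita promoter, stood at 10.7 ± 2.37 and 10.3 ± 3.64 FPKM, overlapping fully (adjusted p = 0.871). Groups did not overlap for 2 of the 15 genes, both lower, against 11.7% of all genes in that direction.

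Of the promoter factors on which Ciita docks, 10 of 11 were tested, 5 higher and 5 lower, with a median of -0.05 and none past the threshold. Rfx5, the RFX subunit that contacts the X box, read 10.4, 9.55 and 11.1 FPKM with saline and 6.97, 9.90 and 6.59 FPKM with exosomes. Rfxank, another RFX subunit, read 4.30, 5.20 and 5.47 FPKM with saline and 2.72, 4.68 and 2.20 FPKM with exosomes. For both, exosome 1 and 3 were below the saline libraries and exosome 2 lay within them, unlike Cd74 and the D chains. The log2 differences were -0.38 ± 0.16 and -0.55 ± 0.23 (SE), with adjusted p of 0.311 and 0.307 in limma, and Rfxank passed at -0.71 with library weights (adjusted p = 0.0496), a fit that called 256 genes higher and 362 lower. The coactivator gene Crebbp differed by 0.22 (adjusted p = 0.367), and the third RFX subunit, Rfxap, was listed at 0 in 5 libraries and at 0.0178 FPKM in exosome 1.

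Genes of class II loading and turnover were not uniform. Of 14 listed, 13 were in the table and 8 were tested, 5 higher and 3 lower, with a median of 0.10 and none past the threshold. Ctss, the cathepsin that makes the last cuts in the invariant chain, read 15.9, 20.9 and 17.3 FPKM with saline and 22.8, 24.8 and 21.8 FPKM with exosomes. It was higher in every exosome library than in any saline library, by 0.35 ± 0.13 (SE; adjusted p = 0.287 in limma), with exosome 2 the highest, whereas Cd74 was lowest there. Ifi30, a lysosomal thiol reductase, stood at 23.1 ± 0.683 and 19.2 ± 1.80 FPKM (adjusted p = 0.308), and Ctsd, an aspartic protease, had a log2 difference of -0.21 (adjusted p = 0.344). Both were lower in all exosome libraries than in any saline library. Of the 8 tested, groups were apart for 2 higher, Ctss and Ctsl, and for these 2 lower. Among all genes the shares were 9.40% higher and 11.7% lower. The DM inhibitors RT1-DOa and RT1-DOb were at 0.225 to 0.694 and 0.259 to 0.689 FPKM, below the minimum.

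Class I presentation, which is read through the related regulator Nlrc5, showed no group difference past the threshold either. Of 16 tested genes 6 were higher and 10 lower, with a median of -0.11, where 39.3% of all tested genes were higher. B2m, the light chain of class I, stood at 529.8 ± 22.5 and 483.2 ± 32.7 FPKM (adjusted p = 0.557 in limma). Nlrc5 stood at 0.440 ± 0.0946 and 0.469 ± 0.275 FPKM, and was not tested. Psme2 (log2 difference -0.25, adjusted p = 0.339), Tap1 (-0.26, adjusted p = 0.354) and Erap1 (-0.19, adjusted p = 0.409) had the smallest p of the list. The tested genes of the co-stimulation list, Cd274 (-0.48, adjusted p = 0.345), Cd80 (-0.30, adjusted p = 0.402) and Icoslg (-0.10, adjusted p = 0.798), were all lower and none passed. Cd274 encodes an inhibitory ligand, so the list does not hold activating genes alone.

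**Figure D4:**
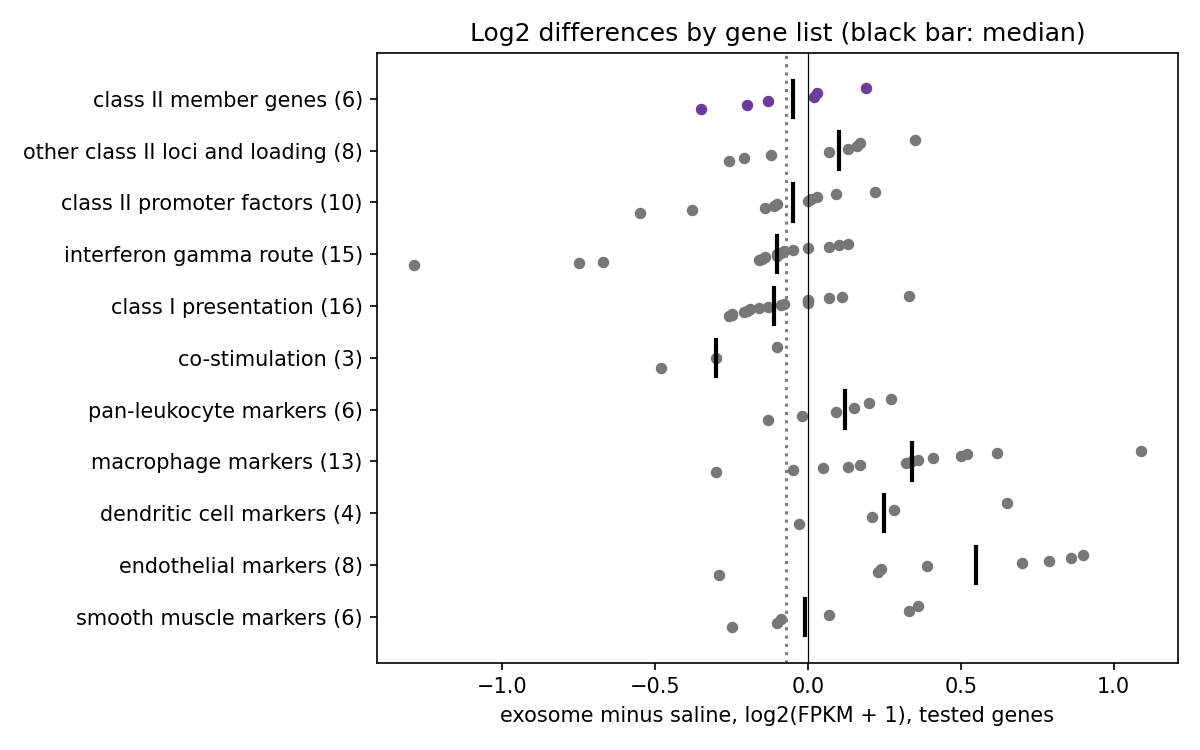
Log2(FPKM + 1) differences, exosome minus saline, of the tested genes of each list shown (number in parentheses; black bar, list median; dotted line, median of all tested genes). The class II genes lie on both sides of 0 with a median of -0.05, and the macrophage markers have a median of 0.34.

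Markers of the cells that can carry class II were set beside these values. Smooth muscle markers summed to 13467.6 to 21219.4 FPKM in the saline and 14906.6 to 20982.0 in the exosome libraries, and these contractile genes of the aortic wall were high throughout. The list's genes with the smallest p, Smtn (log2 difference -0.25, adjusted p = 0.496), Acta2 (0.36, adjusted p = 0.579) and Cnn1 (0.33, adjusted p = 0.609), did not pass in limma. The pan-leukocyte gene Ptprc stood at 2.64 ± 0.164 and 3.09 ± 0.894 FPKM (adjusted p = 0.681 in limma). Of the 6 pan-leukocyte markers tested 4 were higher and 2 lower, with a median of 0.12, led by Laptm5 (0.27, adjusted p = 0.363), Tyrobp (0.20, adjusted p = 0.619) and Cd53 (-0.13, adjusted p = 0.640).

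Macrophage markers, of which 13 of 14 were tested, were higher for 11 and lower for 2, with a median of 0.34 and none past the threshold. Their summed level was 196.9 to 204.6 FPKM with saline and 223.6 to 276.9 FPKM with exosomes, and Marco was listed at 0 throughout. Groups did not overlap for 6 of the 13, all higher, against 9.40% of all genes in that direction. Cd163 stood at 6.45 ± 0.533 and 15 ± 2.13 FPKM (adjusted p = 0.143 in limma), Mrc1 at 10.3 ± 1.26 and 16.3 ± 0.750 (adjusted p = 0.237) and C1qb at 15.6 ± 0.666 and 23.0 ± 3.42 (adjusted p = 0.255). Cd163 passed with quantile normalization (1.17, adjusted p = 0.0490), and all 3 passed with library weights, with adjusted p of 0.0380 for Cd163 and 0.0436 for Mrc1 and C1qb. The weighted fit, also given below for Clec10a and Nos3, was not planned. It called 256 genes higher and 362 lower, against 1 higher and 0 lower without weights.

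Cd74 relative to the summed macrophage markers was 0.267, 0.249 and 0.276 in saline 1, 2 and 3 and 0.245, 0.179 and 0.238 in exosome 1, 2 and 3. The groups did not overlap, but exosome 1 was only just below saline 2. Relative to Csf1r, the receptor that maintains macrophages, Cd74 was 3.20, 2.77 and 3.10 with saline and 2.80, 1.81 and 2.71 with exosomes, and these groups overlapped. These ratios were formed after the values were seen and were not tested.

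Of 12 dendritic cell markers 4 were tested, with a median of 0.25 and a summed level of 23.1 to 25.8 FPKM with saline and 31.3 to 36.6 with exosomes. Clec10a, a lectin that macrophages also carry, made up much of it (11.3 ± 0.927 and 18.2 ± 1.34 FPKM, adjusted p = 0.219 in limma, and 0.0422 with library weights). Zbtb46 (0.28, adjusted p = 0.422) and Clec9a (0.21, adjusted p = 0.687) followed, at 4.03 to 7.46 and 0.871 to 2.77 FPKM. Xcr1, Cd209a and Siglech, of the same list, were at or near 0. Of the B cell markers, Ms4a1 reached at most 0.157 FPKM and Pax5 0.154, and the list summed to 5.99 to 10.9 FPKM with saline and 2.27 to 15 with exosomes. Blk, a kinase gene, and Jchain, the plasma cell joining chain, made up most of it, at 0.725 to 6.18 and 1.17 to 12.9 FPKM. These were the members tested, with log2 differences of -1.13 (adjusted p = 0.285) and 0.39 (adjusted p = 0.740) in limma.

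T cell markers stood between 0 and 1.06 FPKM apart from Cd4, which rat macrophages also express. Cd4 read 12.2, 13.4 and 12.0 FPKM with saline and 14.3, 16.7 and 18.9 FPKM with exosomes, with the groups apart and an adjusted p of 0.283 in limma. The part of each cell type in the class II levels was not tested.

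Of the other cells of the wall and the tissue around it, endothelial markers had a median of 0.55, with 4 of 8 apart and higher, against 9.40% of all genes in that direction, and none past the threshold. Nos3 (log2 difference 0.86, adjusted p = 0.237), Cldn5 (0.90, adjusted p = 0.261) and Pecam1 (0.70, adjusted p = 0.262) led in limma, and Nos3 passed with library weights (0.73, adjusted p = 0.0476). Adipocyte markers summed to 378.5 to 1178.8 FPKM with saline and 435.8 to 787.0 with exosomes, led by Lep (-0.65, adjusted p = 0.432), Cfd (0.44, adjusted p = 0.438) and Plin1 (-0.48, adjusted p = 0.478). Saline 2 alone held the sum of 1178.8, and without it the differences were -0.18, 0.61 and -0.12. Of the lymph node stroma genes, Cxcl13 (0.28, adjusted p = 0.798) and Ccl21 (-0.20, adjusted p = 0.899) were tested, summing with the rest to 21.6 to 42.7 FPKM with saline and 7.95 to 62.1 with exosomes.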

How the data were processed

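The libraries were prepared from total RNA of aorta by a SMARTER mRNA-seq kit, per the labels' protocols. The authors deposited FPKM for 24005 gene symbols, and the 6 columns carry the sample titles. The submitters' processing notes name DESeq2 1.28.1 without saying what it was used for. Aligner, counting tool, strand setting, build and annotation: not given in the sources used here. FPKM steps gave whole reads within 0.02 reads for 18430 genes, 100.0% of those above 0, and library totals of 28063355 to 44561082 reads or read pairs.

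Tests covered the 11742 genes whose FPKM averaged 1 or more, by limma 3.58.1 (R 4.3.3) with log2(FPKM + 1) as the value, an intensity trend, two-sided, all 6 libraries, no covariate. This scale understates changes of low genes. P-values were adjusted by Benjamini-Hochberg at 0.05. The fit was also run on simulated counts, with the same dispersion for every gene and no deviation of whole libraries. It called 91% of 2-fold and 100% of 4-fold changes, and 13 unchanged genes. Such data lack the differences between libraries seen here, so they do not show how well the fit does on these. Ratios, permutation tests and plots used Python 3.11.15, scipy 1.17.1 and matplotlib 3.10.9. Older symbols were matched through the GRCr8 gene table.

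The members, lists and tests were chosen with earlier results of these data known. Named were the 8 members, up to 3 genes with the smallest p per list, the 6 most alike genes, and a few fixed genes, among them Ptprc, Ifng, Irf1, Nlrc5, B2m and Zbtb16. Some of the genes so chosen are not reported here. Alternatives were other pseudocounts, filters, scalings and moderation, library weights, a replicate block, voom on recovered reads, and left-out libraries.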

Additional observations from a re-analysis of the deposited data

How the results depend on the processing

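No class II gene passed the adjusted threshold under any of the alternatives run, and the lowest adjusted p among them was 0.194, for RT1-Db1. Their signs were not stable. With exosome 1 and 3 both left out, so that exosome 2 stood alone, its spread taken from the saline libraries, the log2 difference was -0.39 for Cd74, -0.29 for RT1-Da, -0.16 for RT1-Db1, -0.84 for RT1-Ba, -0.98 for RT1-Bb, 0.73 for RT1-DMb and -0.10 for Ciita. For RT1-DMa, in the fit with no filter, it was 0.16. These values describe 1 library, exosome 2. With library weights the log2 difference was 0.23 for RT1-Ba and 0.49 for RT1-Bb. Leaving out single libraries gave -0.12 to 0.23 for Cd74, -0.05 to 0.19 for RT1-Da, 0.03 to 0.36 for RT1-Db1, -0.54 to 0.12 for RT1-Ba, -0.57 to 0.30 for RT1-Bb, -0.90 to 0.09 for RT1-DMb and -0.06 to 0.07 for Ciita.

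Over all genes, 2 were higher past the threshold with quantile normalization (Zbtb16 and Cd163), 256 higher and 362 lower with library weights, and 0 higher with exosome 1 and 3 left out (against 1 higher and 0 lower as reported). Single left-out libraries gave 0 to 2 higher and 0 to 7 lower. Genes at an unadjusted p under 0.05 numbered 3949 with weights, 694 with exosome 1 and 3 left out and 942 to 3211 with single libraries left out, against 1877. Weights were estimated gene by gene, a choice made after seeing the data, because the planned REML estimate stopped before it converged. They were 2.81 for exosome 1 and 0.386 for exosome 2.

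Other named genes that turned were Nlrc5 (-0.01 and -0.04 with pseudocounts of 0.1 and 0.01, -0.05 with weights, -0.07 with exosome 1 and 3 left out, -0.13 to 0.12 without single libraries), Ptprc (-0.04 with exosome 1 and 3 left out, -0.03 to 0.24), Jchain (-0.99, and -0.26 to 1.09), Icoslg (0.10 with weights, -0.27 to 0.07), Irf1 (-0.33 to 0.12), Tyrobp (-0.02 to 0.35), Smtn, Acta2 and Cnn1 (0.10, -0.06 and -0.23 with exosome 1 and 3 left out), Cxcl13 (-0.13 with them left out, -0.28 to 0.63 without single libraries), Ccl21 (0.56, and -0.76 to 0.74) and Clec9a (-5.3e-06 to 0.40). Zbtb16 did not pass without saline 3 (adjusted p = 0.0865), without exosome 1 (0.0503) or with exosome 1 and 3 left out (0.124). The cause was not tested.

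With the replicate number as a block, 1 gene was higher and 0 were lower, and no call changed. The deviations of same-numbered libraries had correlations of 0.068, 0.096 and -0.165. Those of libraries with unlike numbers ran from -0.236 to 0.213. Values from so few libraries cannot show whether the numbers stand for a pairing, which the sources used here do not give. RT1-DMa rested on 15 reads in all, and the cause of its low count was not tested.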
